A study of Mus musculus with 12 samples.

Results

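The Serpina cluster of mouse chromosome 12 was examined for binding of CTCF, across 10 listed genes: Serpina1a, Serpina1b, Serpina1c, Serpina1d, Serpina1e, Serpina3k, Serpina3m, Serpina3n, Serpina6 and Serpina10. All 10 were found in the RefSeq annotation of GRCm38.p6, the build of which mm10 is the browser name, between positions 103616675 (Serpina10) and 104414334 (Serpina3n). Peaks from 6 lists were joined into sites where they overlapped by 1 bp or more, and every site from 50 kb before to 50 kb beyond these genes was taken (103566675 to 104464334, 897.7 kb). This gave 46 sites of 76061 in the genome. CTCF had been mapped by chromatin immunoprecipitation and sequencing in whole livers of wild-type male C57BL6/Ncrl mice aged 3 to 4 months on normal chow. The fed group had food ad libitum with livers taken at ZT16 (zeitgeber time, hours after lights on), and the starved group went without food for 24 h with livers taken at ZT13, so feeding and collection time cannot be told apart. Each group had 3 libraries with a peak list of its own, named fed 1 to 3 and starved 1 to 3; 3 input libraries per group were not analysed here. No label ties a library to its own mouse, so the p-values below speak of the variation among libraries, part or all of which could be technical. Whole liver holds several cell types, and more cells with a bound site cannot be told apart from stronger binding per cell.

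Serpins are protease inhibitors that trap their target protease by a change of shape, and clade A is the largely secreted group that hepatocytes release into plasma. Serpina1a to Serpina1e of the mouse are tandem copies related to human alpha-1-antitrypsin, an inhibitor of neutrophil elastase. The Serpina3 genes are tandem copies related to human alpha-1-antichymotrypsin. CTCF is a zinc finger protein that binds insulators and, with cohesin, anchors chromatin loops, and its sites often lie at the borders between groups of genes.

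The listed genes themselves held no CTCF site that was found in all libraries; around them such sites lay outside the genes, at the sides of blocks of neighbours. Of the 10 listed genes, 0 overlapped a site called in all 6 libraries and 0 overlapped a site called in all 3 fed libraries. The Serpina1 genes among them are tandem copies and so not independent of each other. How reads that fit several copies were placed is not given. A lack of sites in these copies therefore cannot be told apart from reads that were left out. Among the 3648 protein-coding genes of the genome with a length in the range of the listed genes (7.10 to 14.8 kb), 27.3% overlapped a site of all 6 libraries and 46.1% a site of all 3 fed libraries; the difference from the listed genes was not tested. Of the other 18 Serpina genes of the chromosome, Serpina11 and Serpina12 (vaspin, an adipokine) each overlapped a site of all 6 libraries, and Serpina9 overlapped a site of the fed libraries. The distance from a listed gene to the nearest site of all 6 libraries ran from 2.85 kb (Serpina6) to 113.7 kb (Serpina1a), with a median of 18.3 kb.

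**Figure D1:**
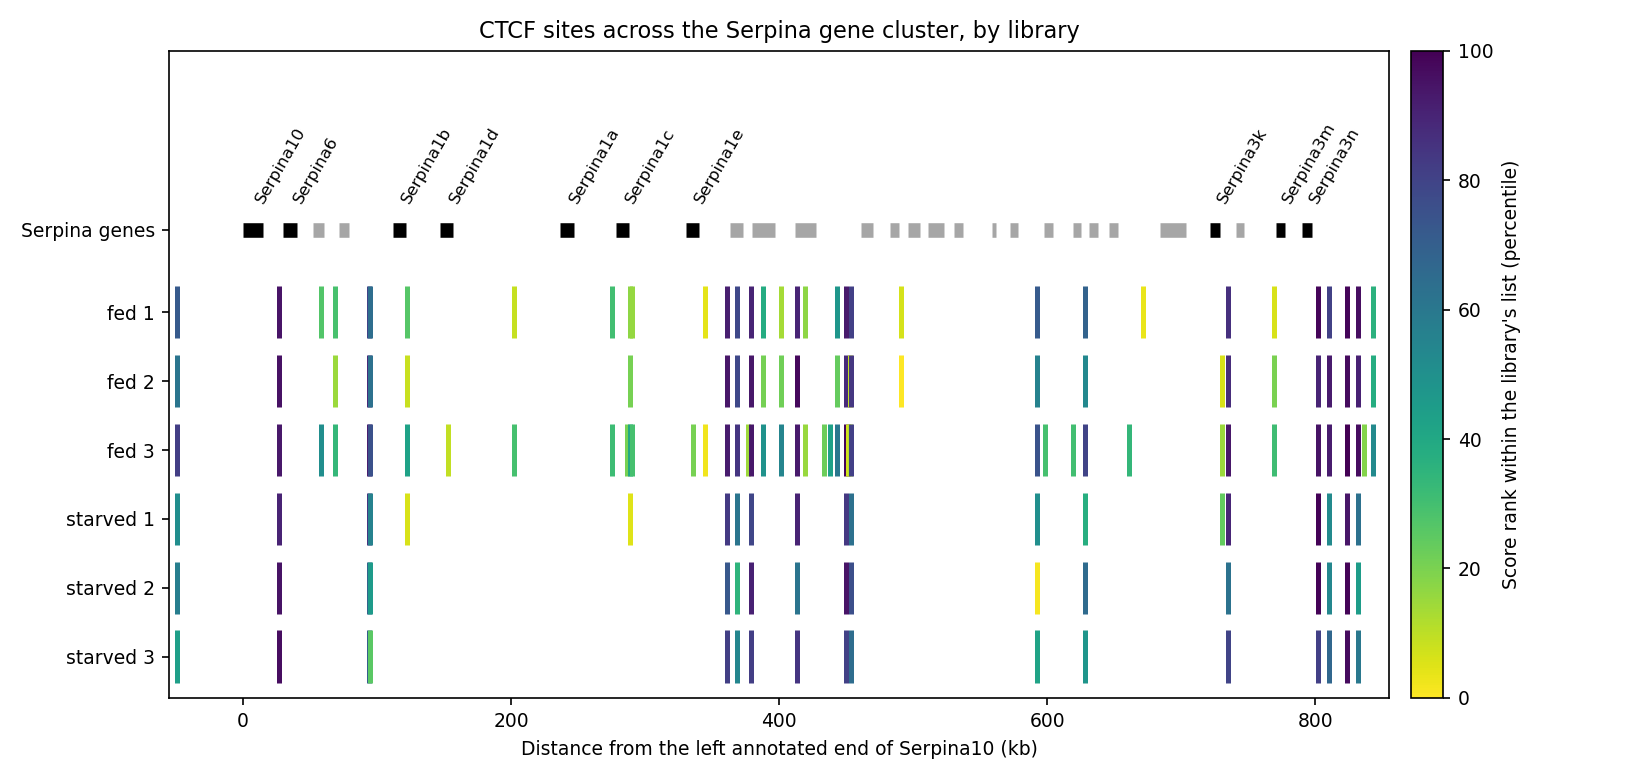
Map of the 46 sites by library. The x axis is the distance in kb from the left annotated end of Serpina10, each tick is a site called in that library (tick width not to scale), its colour the rank of its score within that library's list (percentile), and bars at the top are Serpina genes, listed ones in black with names. The 17 columns that run through all 6 libraries leave out the stretch with Serpina1b, Serpina1d, Serpina1a, Serpina1c and Serpina1e.

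Of the listed genes, Serpina1b and Serpina1c had a site just upstream of their annotated starts, and both sites were weak. The RefSeq promoter table (GRCm38.p6) had an entry for 6 of the listed genes. The 250 bases before the start are shown for these 2 genes and, as a copy with no peak there, for Serpina1a; all 3 genes lie on the minus strand, and capitals mark the bases inside the merged CTCF site. The stretches are chr12:103738190-103738439 for Serpina1b, chr12:103904951-103905200 for Serpina1c and chr12:103863620-103863869 for Serpina1a.
Serpina1b: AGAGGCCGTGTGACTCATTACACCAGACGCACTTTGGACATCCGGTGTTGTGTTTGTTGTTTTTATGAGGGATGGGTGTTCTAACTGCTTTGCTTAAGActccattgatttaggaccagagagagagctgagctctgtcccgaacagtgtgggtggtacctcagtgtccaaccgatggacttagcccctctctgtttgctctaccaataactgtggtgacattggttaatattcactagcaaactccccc
Serpina1c: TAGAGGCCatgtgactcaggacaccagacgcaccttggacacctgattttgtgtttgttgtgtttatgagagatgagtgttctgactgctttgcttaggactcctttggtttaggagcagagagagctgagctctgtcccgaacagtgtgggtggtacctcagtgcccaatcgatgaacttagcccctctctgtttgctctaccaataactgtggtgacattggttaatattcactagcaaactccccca
Serpina1a: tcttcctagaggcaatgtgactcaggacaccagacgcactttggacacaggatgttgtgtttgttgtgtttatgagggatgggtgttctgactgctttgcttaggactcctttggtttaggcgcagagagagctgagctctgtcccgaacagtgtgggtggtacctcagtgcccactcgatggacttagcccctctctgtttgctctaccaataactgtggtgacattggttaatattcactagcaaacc
The capitals cover 99 bases at the distal end of the Serpina1b stretch and 8 bases of the Serpina1c stretch, so most of each site lay further upstream than the bases shown. The 250 bases of Serpina1a, Serpina1d, Serpina1e and Serpina3n held no base of any site.

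At Serpina1b the site ran from −683 to −152 bp relative to the annotated start (103738341 to 103738872). Its peaks had list ranks, the percentile of the score within the library's own list with 100 as the strongest, of 26.5, 8.34 and 42.2 in fed 1, 2 and 3 and 6.16 in starved 1. At Serpina1c the site ran from −607 to −243 bp (103905193 to 103905557), with list ranks of 16.97, 20.6, 40 and 4.92 in the same 4 libraries. Neither site was called in starved 2 or starved 3, and both ranked in the lower part of each list that held them. The starved 1 peak was the narrowest at both genes, at 176 and 202 bp, against 307 to 532 bp at Serpina1b and 282 to 365 bp at Serpina1c in the fed libraries. Of all 32851 promoter windows in the table (250 bases before to 50 after a start), 17.8% overlapped a site of all 3 fed libraries and 7.35% one that at most 1 starved library also held; 2 of the 6 listed entries did both.

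**Figure D2:**
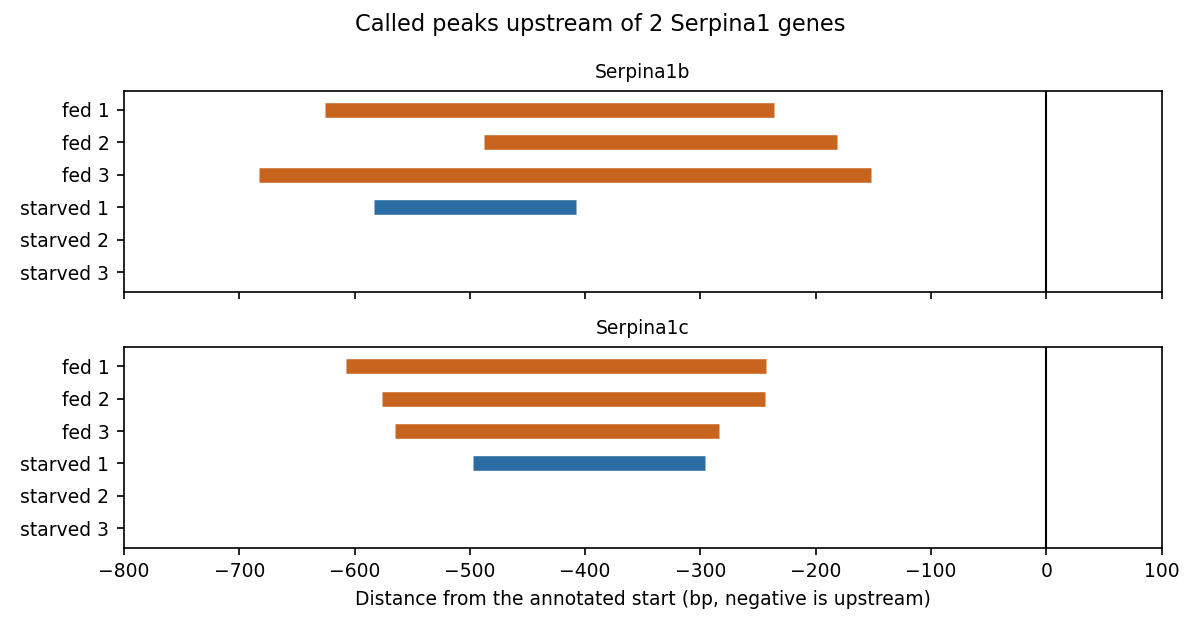
Called peaks upstream of Serpina1b and Serpina1c in each library. The x axis is the distance in bp from the annotated start, negative upstream, each bar is the extent of a called peak, and rows without a bar had no peak; the fed peaks and that of starved 1 overlap each other at both genes.

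The promoters of the tandem copies were close in sequence. Over the aligned part of the 250 bases, the 10 pairs among Serpina1a to Serpina1e were identical at 91.4 to 97.0% of positions, and Serpina1a and Serpina1c at 95.5%, while Serpina1a and Serpina3n were identical at 49.6%. The sources used here do not give how reads that fit several copies were placed, so a peak at 1 copy cannot be assigned to that copy alone. For the same reason a lack of peaks at a copy cannot be told apart from reads that were left out.

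The other peaks in and around the Serpina1 genes were weaker or present in fewer libraries. Fed 3 alone had a peak inside Serpina1d (103769139 to 103769334, list rank 9.32), inside Serpina1c (103902937 to 103903097, 20.4) and inside Serpina1e (103952542 to 103952713, 20.4). The peaks in Serpina1c and Serpina1e had the same score, 8.08, which 479 peaks of that list shared. Counted from each gene's start, those of Serpina1d and Serpina1e lay at like places, 4299 to 4494 and 4184 to 4355 bp downstream. Fed 1 and fed 3 shared 4 further sites of this block, 2.92 kb beyond the downstream end of Serpina1c (103891777 to 103892010, list ranks 30.2 and 31.3), 1.74 kb upstream of its start (103906691 to 103906984, 15.9 and 29.4), 4.67 kb upstream of Serpina1e (103961563 to 103961850, 3.92 and 2.26) and in the pseudogene Gm8893 (103818443 to 103818667, 8.82 and 29.4). None of these 7 sites was called in fed 2 or in any starved library.

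The 5 Serpina1 genes lay together in the longest interval of the cluster between neighbouring sites of all 6 libraries. It ran from 103711890 to 103977286, 265.4 kb, and held 6 pseudogenes beside the 5 genes. Whether reads that fit several copies were left out in this stretch is not known, and their part in its length was not tested. Of the 22110 such intervals in the genome, 8.20% were as long or longer, and the median was 39.0 kb. Every interval is counted there, also those too short to hold a gene. An interval picked because it holds genes is likelier to be long, and the share among such intervals is not given here. Its length stayed between 265.4 and 266.4 kb when any library was left out, with lists of equal length, with a higher score limit and with other ways of joining peaks. Serpina10, the protein Z-dependent inhibitor of coagulation factor Xa, lay in an interval of 75.5 kb (32.0% of intervals were as long). Serpina6, the corticosteroid-binding globulin, shared 66.5 kb with Serpina16 and Serpina1f (35.2%). Serpina3k lay with Serpina3h, Serpina3i and Serpina3j in 105.9 kb (23.6%), and Serpina3m and Serpina3n lay in 65.7 kb (35.5%). These 4 intervals were all above the median of all intervals, a background with the same limit, but of lengths that were common in the genome.

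**Figure D3:**
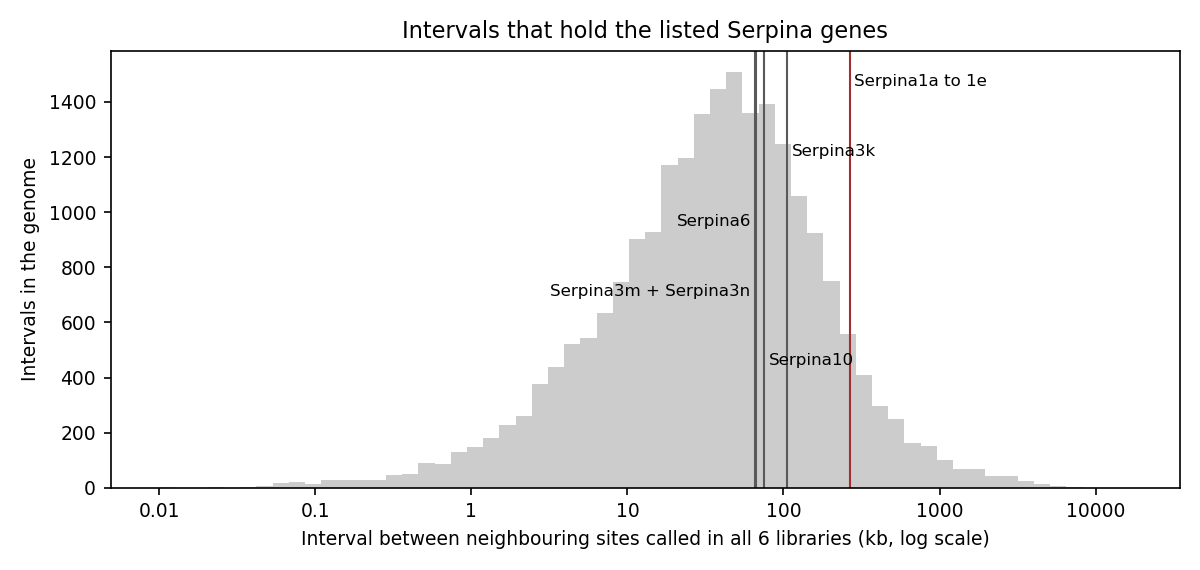
Lengths of the 22110 intervals between neighbouring sites called in all 6 libraries (x axis in kb, log scale; y axis, number of intervals in the genome). Vertical lines mark the 5 intervals with listed genes, from 65.7 kb for Serpina3m with Serpina3n, next to 66.5 kb for Serpina6, to 265.4 kb for the Serpina1 genes.

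The sites that bordered these intervals are described next by the rank of their score among the 22131 sites that all 6 libraries held (shared-site rank, a percentile), since this set is the same in each library while the lists differ in length. Left of the Serpina1 genes, in the gap after Serpina1f, stood a pair of sites 0.39 kb apart. The stronger (103710233 to 103710929), 17.2 kb from Serpina1b, had shared-site ranks of 50.1, 74.7 and 72.5 in fed 1, 2 and 3 and of 78.9, 66.6 and 61.1 in starved 1, 2 and 3. Its neighbour (103711320 to 103711890) had 13.2, 20.2 and 18.4 and then 40.1, 42.1 and 8.10, so the starved values lay on both sides of the fed ones. On the right the block was bordered by a site between Serpina1e and Serpina11 (103977286 to 103978396), 20.4 kb from Serpina1e, at 78.8, 86.7 and 73.7 in fed and 76.8, 70.9 and 75.4 in starved livers. The groups overlapped at all 3 of these sites.

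Between Serpina11 and Serpina4-ps1 the sites of all 6 libraries were closer together. Beside the border site, 5 lay within 85.7 kb: inside Serpina11 (103984712 to 103985963, shared-site rank 48.9 ± 3.41 in fed and 39.0 ± 7.60 in starved, SD, n = 3 each here and below), beside Serpina9 (103994990 to 103996115, 79.4 ± 5.44 and 79.0 ± 9.86), inside Serpina12 (104029763 to 104030870, 82.2 ± 11.4 and 74.99 ± 14.4) and as a pair before Serpina4-ps1 (104065971 to 104066819, 83.9 ± 10.4 and 82.1 ± 10.8; 104069615 to 104070397, 50.9 ± 14.7 and 58.9 ± 13.4). In this stretch stood 3 of the 6 sites called in the fed libraries alone, given below. No listed gene lies here.

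Within the row of Serpina3 genes stood weaker sites. The site before Serpina3f (104209069 to 104209664) ended the 138.7 kb interval with Serpina5 (the protein C inhibitor), Serpina3a, Serpina3b and Serpina3c. Of the cluster's sites that all libraries held it was among the weakest, at 29.2, 9.01 and 15.8 in fed and 32.8, 0.85 and 23.7 in starved livers. That between Serpina3g and Serpina3h (104244940 to 104245664) stood at 21.5, 6.74 and 32.5 and at 17.2, 63.1 and 30.9, and starved 2 alone lay above all fed values. The site nearest to Serpina3k, 5.86 kb beyond its right end (104351601 to 104352435), was stronger, at 65.03, 71.9 and 79.1 in fed and 85.7, 60.03 and 73.2 in starved livers, which overlapped. Serpina3k encodes a kallikrein-binding serpin.

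Around Serpina3k and Serpina3m there were also weak peaks that starved libraries mostly lacked. A site 1.14 kb beyond the right end of Serpina3k (104346878 to 104347135) was called in fed 2, fed 3 and starved 1, at list ranks of 5.98, 15.001 and 24.2, and was the sole site of the window with a starved peak but not 3 fed ones. A site 0.97 kb before the left end of Serpina3m (104385818 to 104386188) had a peak in each fed library, at list ranks of 6.17, 20.2 and 30.9, and in no starved one. The strand of Serpina3m was not available from the promoter table, so this end is not called its start.

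The left edge of the cluster had a strong site near Serpina6. It lay between the pseudogene Gm18501 and Serpina6, 2.85 kb from Serpina6 and 11.8 kb from Serpina10 (103643301 to 103643777). Its shared-site ranks were 86.3, 90.4 and 78.8 in fed and 87.0, 94.9 and 95.7 in starved livers, high in all 6 libraries and overlapping between groups (mean difference, starved minus fed, of 7.35, two-sided exact permutation p = 0.2). The difference was 4.15 without fed 3 and 15.3 under a higher score limit (the median score over all lists), and the starved ranks lay above the fed ones without fed 2 (9.98) or without starved 1 (9.88). Fed 2 and starved 1 were the libraries that overlapped, so these separations follow from the omission. The outermost site, inside Ppp4r4, a regulatory subunit of protein phosphatase PP4, was weaker (103567045 to 103567771, 28.6 ± 10.8 and 38.1 ± 14.9).

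The right edge, between Serpina3n and the homeobox gene Gsc, held 4 sites of all 6 libraries within 31.0 kb. Serpina3n encodes an inhibitor of granzyme B that rises in inflammation, and the site 3.83 kb beyond its end (104418168 to 104419760), over the small nucleolar RNA gene Gm24334, had shared-site ranks of 96.3, 77.6 and 83.7 in fed and 99.1, 99.2 and 74.8 in starved livers. The site inside the noncoding RNA gene Gm40562 (104439944 to 104440689) had the highest mean rank of the cluster in both groups, at 96.5, 93.6 and 98.7 and at 91.9, 99.1 and 96.2. The groups overlapped at both. Between them, a site 7.17 kb past Gm24334 (104426571 to 104427912) had 51.5, 84.3 and 74.8 in fed and 35.1, 50.9 and 55.9 in starved livers, a mean difference of −22.9 with overlap of fed 1 and starved 3 (two-sided exact permutation p = 0.2). The groups were apart there in 2 of the 10 alternatives that held the site, without fed 1 (−32.3) and without starved 3 (−26.9). These are the libraries that overlapped, so both separations follow from the omission. The smallest difference was −15.9, without fed 2.

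The last of these sites stood lower in every starved library. It lay 22.1 kb from Gsc and 33.6 kb from Serpina3n (104447975 to 104449123), with shared-site ranks of 90.4, 80.1 and 88.9 in fed 1, 2 and 3 and of 49.1, 41.7 and 46.7 in starved 1, 2 and 3. The means were 86.5 ± 5.52 and 45.8 ± 3.797, a difference of −40.6 percentile points, and no starved value reached a fed one. Its exact permutation p (two-sided) was 0.1, the smallest that 3 libraries against 3 allow, and 0.630 after Benjamini-Hochberg adjustment over the 22131 sites. Of those sites 19 (0.0859%) had a fall in mean rank as large, a count made after the site's values were seen. The difference was −32.7 without starved 2 and −46.4 with lists of equal length, and the groups stayed apart in all 10 alternatives that held the site. Most of these leave out a library, which can hardly make separated groups overlap, so this count is no separate support. Fed peaks there were 1088, 640 and 1149 bp wide and starved peaks 498, 268 and 437 bp; whether width plays a part in the difference was not tested. Under the higher score limit the site was no longer called in every library.

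Over the 17 sites of the cluster that all libraries held, this was the only one whose fed and starved ranks were apart (5.88% with starved lower, against 7.37% of all shared sites), and 0 had every starved rank above every fed rank, against 8.51%. The mean rank was lower in starved livers at 8 sites and higher at 9; it was lower at 48.4% of all shared sites. The median of the differences was 0.99 percentile points over the 17 sites and 0.38 over all shared sites. With a library left out, the groups were apart at 1 to 4 of the 17 sites, the 4 without starved 3 (26.1% of all sites that the remaining libraries shared), 3 without fed 1 (26.5%) or without starved 1 (26.2%), 2 without fed 2 (26.8%) or without fed 3 (25.4%), and 1 without starved 2 (29.1%). All 17 had an exact permutation p of 0.1 or more, which the design cannot go below, so no site could pass a threshold of 0.05.

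**Figure D4:**
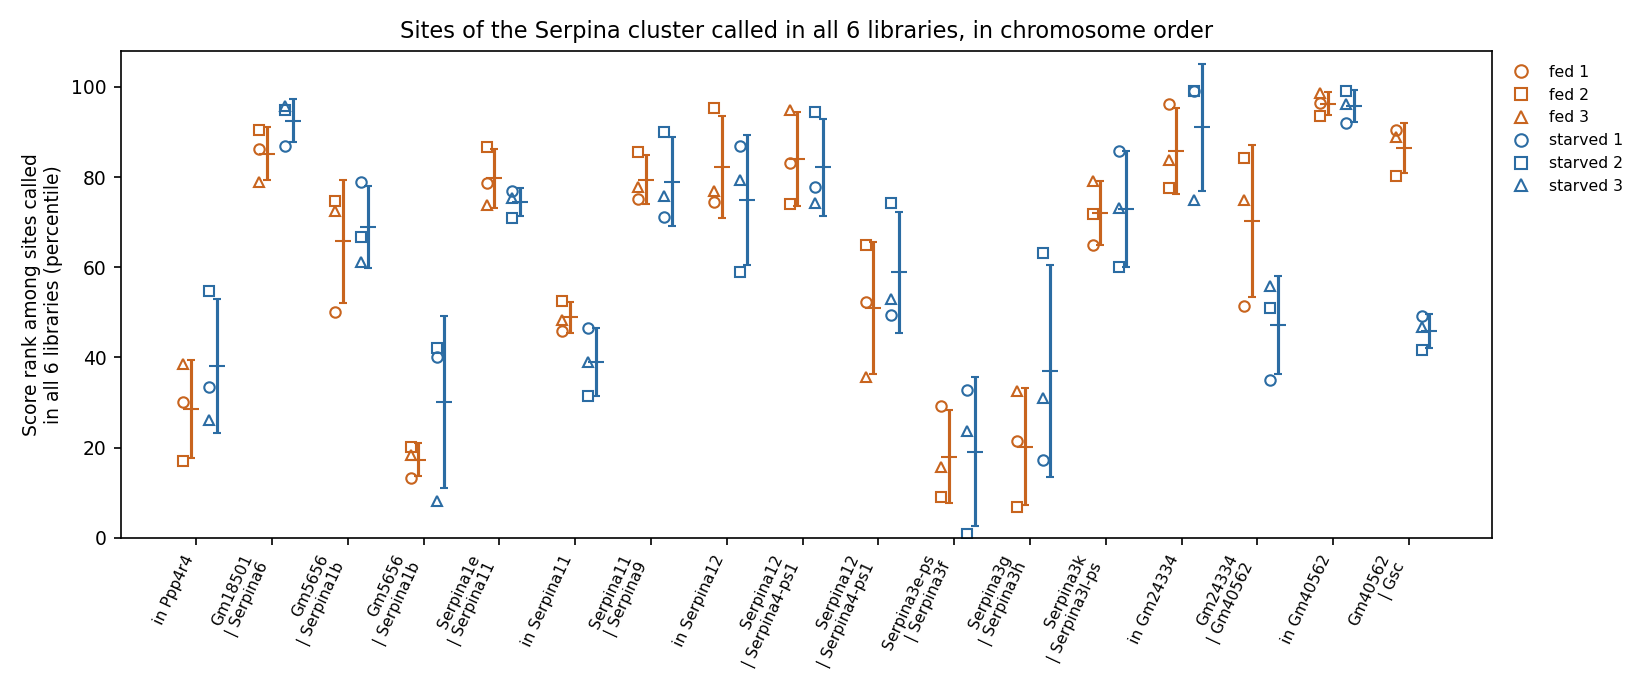
Shared-site rank (y axis, percentile of the score among the 22131 sites called in all 6 libraries) of the 17 sites, in chromosome order along the x axis and named by the gene they overlap or the genes at their sides. Points are libraries, bars mean ± SD of 3 libraries; fed and starved overlap everywhere except at the last site, between Gm40562 and Gsc.

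Fed livers had more called sites in the cluster and in the genome as a whole. The number of sites in the window was 33, 28 and 44 in fed 1, 2 and 3 and 20, 17 and 17 in starved 1, 2 and 3. These are 35 ± 8.19 in fed and 18 ± 1.73 in starved livers (SD, n = 3 each), a difference of −17 sites (two-sided exact permutation p = 0.1, again the smallest possible). The whole lists differed likewise, with 47437 to 74162 sites in the fed and 23201 to 29695 in the starved libraries, and the read depth behind them is unknown. Per 10000 sites of its own library the window held 6.04, 5.90 and 5.93 in fed and 6.74, 7.33 and 5.92 in starved livers, 5.96 ± 0.07 against 6.66 ± 0.71 with overlap (two-sided exact permutation p = 0.3). Under the higher score limit the means were 5.88 and 10.4, a difference of 4.50, and with lists of equal length 7.15 and 7.42, each with an exact permutation p of 0.1. The mean numbers of window sites were then 17.7 in fed and 13.7 in starved livers under the higher limit, and 17 and 17.3 with equal lists. These rates thus also move with the number of sites in the whole library and do not show more window sites after starvation. With the 23926 best-scored peaks of each list, every library held 17 or 18 sites in the window and all 17 shared sites were found again. The part of sequencing depth in the difference was not tested.

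**Figure D5:**
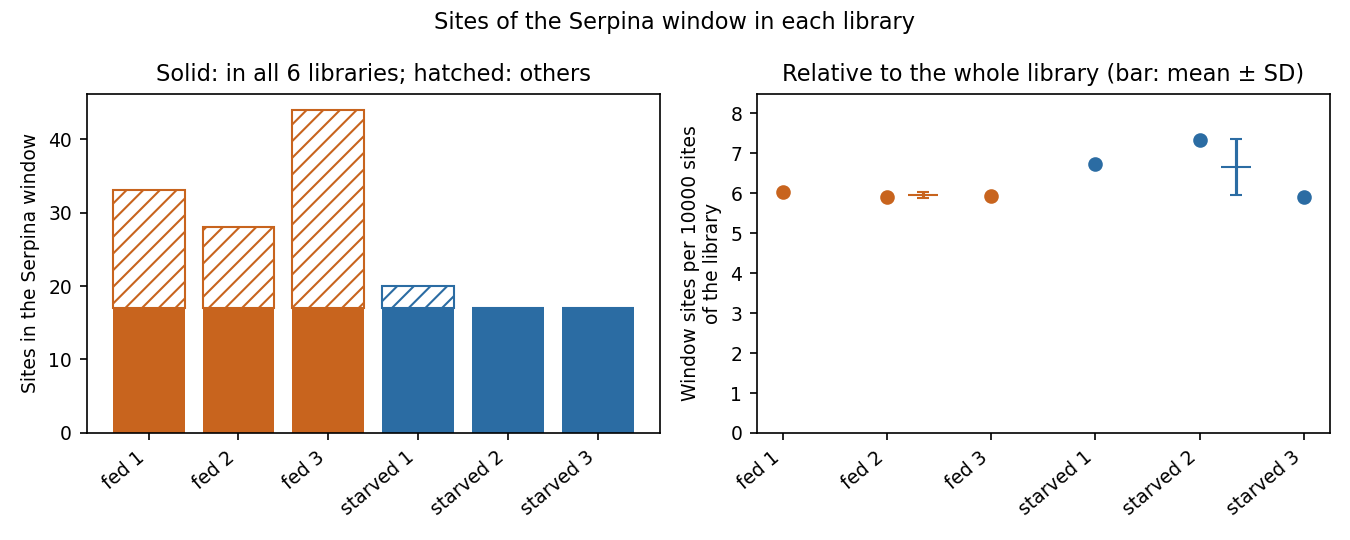
Sites of the window in each library, as a number (left, solid for the 17 sites in all 6 libraries and hatched for the others) and per 10000 sites of the library (right, points with mean ± SD of 3 libraries). The solid part is 17 throughout, the hatched part runs from 11 to 27 in fed and from 0 to 3 in starved libraries, and the values on the right overlap.

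By presence, the 46 sites fell into 17 of all 6 libraries (37.0%), 2 of the 3 fed libraries and starved 1 (those upstream of Serpina1b and Serpina1c), 6 of the 3 fed libraries alone, 8 of 2 fed libraries, 12 of a single fed library, 11 of them fed 3, and the 1 beyond Serpina3k of 2 fed libraries and starved 1. In the genome 29.1% of sites were called in all 6 libraries and 27.1% in 1 library, against 26.1% here. Sites of fed 3 alone made up 24.7% of all sites in the genome, beside the 11 of 46 here. No window site was called in starved libraries alone, and the genome share of such sites is not given here. Of the window sites, 26 (56.5%) were called in no starved library, against 57.2% in the genome. Of the 25 sites with all 3 fed libraries, 17 (68.0%) had a peak in every starved library, against 49.3% in the genome, and 6 (24.0%) had none, against 29.1%. Sites are not replicates and these shares were not tested. When fed 2, which had the fewest fed sites, was left out, those with no starved peak were 12 of 31 (38.7%, against 39.5% in the genome). They were 0 of 17 with lists of equal length, where the genome had 1.20%, and 0 of 17 under the higher score limit, where it had 35.6%.

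The 6 sites of the fed livers alone were weak in the fed lists, with mean list ranks from 19.1 to 43.9. Beside that at Serpina3m, they lay in the noncoding RNA gene Gm46373 before Serpina1f (103684745 to 103685041, list ranks 29.1, 15.04 and 33.5 in fed 1, 2 and 3), inside Serpina9 (104004752 to 104005036, 38.6, 20.9 and 49.5), between Serpina9 and Serpina12 (104017810 to 104018115, 13.4, 21.7 and 54.3), between Serpina12 and Serpina4-ps1 (104059436 to 104060019, 47.5, 23.7 and 60.5) and 11.5 kb from Gsc (104459421 to 104459743, 36.2, 37.99 and 52.4). Fed 3 gave the highest list rank at each of the 6, but its list was also the longest, and list ranks depend on list length. The mean fed list ranks of the 17 shared sites ran from 67.2 to 98.4, with no overlap with the 6. Both sets were sorted by presence in the shorter starved lists, so this gap is no separate result about the cluster. The ranks of such sets over the genome are not given here. The sites upstream of Serpina1b and Serpina1c, which starved 1 also held, had mean fed ranks of 25.7 and 25.9.

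Peaks at the shared sites were narrower after starvation, as in the rest of the genome. At the 17 sites the median peak width was 663, 680 and 835 bp in fed and 428, 272 and 331 bp in starved libraries, 726 ± 94.8 and 343.7 ± 78.8 bp (two-sided exact permutation p = 0.1). Every fed width exceeded every starved width at 15 of the 17 sites, against 90.4% of all shared sites. The exceptions were the site between Serpina3g and Serpina3h, where starved 1 gave 428 bp and fed 2 gave 349 bp, and that beyond Serpina3k, where starved 1 gave 641 bp and fed 1 gave 640 bp.

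Beside other clusters of liver genes, taken with the same 50 kb on each side, the Serpina window held a number of shared sites per length within their range. It had 18.9 sites of all 6 libraries per Mb. The window of the albumin cluster (Alb, Afp, Afm, Gc) had 12.1, that of the Ces1 carboxylesterases 19.6 and that of Apoa1, Apoc3, Apoa4 and Apoa5 69.8. The median shared-site rank was 72.0 in fed and 68.9 in starved livers for the Serpina window, 55.7 and 56.7 for the albumin window, 25.02 and 31.9 for the Ces1 window and 35.05 and 36.4 for the Apoa window. Of their sites of the fed livers, 6 of 25, 5 of 28, 4 of 16 and 4 of 17, in that order, had no starved peak. The differences between the clusters were not tested.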

How the data were processed

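CTCF peak lists of 3 fed and 3 starved liver libraries were used. The authors deposited 1 list per library with chromosome, start, end, name and a score per peak, whose kind the sources used here do not give. The submitters' processing notes name mm10 as the build and, without their roles, MACS2, HOMER, BWA 0.7.5a, bedtools 2.17, FastQC and SAMtools. The sources used here do not give read depth or the treatment of inputs, duplicates and reads that fit several places.

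Overlapping peaks were joined into sites, and a site's score in a library was its highest peak. List ranks are percentiles within a library's list, shared-site ranks percentiles within the sites of all 6 libraries. Groups were compared by two-sided exact permutation over 20 labellings, per site with Benjamini-Hochberg adjustment. Positions are counted from 1; genes and promoters came from RefSeq GRCm38.p6, and promoter pairs were aligned without counting end gaps. All listed genes were named whatever their values. Sites of all 6 libraries and sites of the 3 fed libraries alone were described one by one. Of the remaining sites some were described and the others only counted, and not every Serpina pseudogene was named. The members and lists were chosen with earlier results of these data known. Alternatives were a higher score limit, lists of equal length, peaks trimmed to 200 bp or joined within 500 bp, windows of 0 and 100 kb, at least 2 of 3 fed libraries, a block for the replicate number and the omission of each library in turn. The steps were tested on simulated data. The labels give same-numbered libraries no tie beyond the number. Python 3.11.15, pandas 2.3.3, numpy 2.4.6, scipy 1.17.1, matplotlib 3.10.9 and Biopython 1.88 were used.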

Additional observations from a re-analysis of the deposited data

How the results depend on the processing

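The fall in the number of sites per library after starvation kept its sign under all alternatives but lists of equal length, where the difference was 0.33; without 1 library it ran from −20.5 to −12.5. The difference per 10000 sites of the library turned to −0.057 in the window of 0 kb and otherwise kept its sign, reaching 4.50 at the higher score limit and running from 0.367 to 1.07 without 1 library. Sites of all 3 fed libraries with no starved peak numbered 0 of 17 at the higher score limit (30.4), against 35.6% in the genome. They were 0 of 17 with lists of equal length (1.20% in the genome). When 2 of 3 fed libraries were enough, they were 14 of 34 (41.2%, against 41.6% in the genome). Without 1 library they numbered 6 to 12, a share of 24 to 38.7%, against 29.6 to 39.5% in the genome. Sites with fed and starved ranks apart numbered 0 of 10 at the higher score limit, against 13.4% in the genome. They were 0 of 12 (15.9% in the genome) in the window of 0 kb, which leaves out the site near Gsc. Without 1 library they were 1 to 4 of 17, against 25.4 to 29.1% in the genome. With same-numbered libraries as a replicate block, 3 sites had differences of 1 sign in all pairs (31.9% of all shared sites had), and the exact sign-flip test, whose smallest p is 0.25, gave −17.0 sites with p = 0.25. Deviations of same-numbered libraries from their group means correlated at −0.029 to 0.010, and those of other pairs at −0.034 to 0.024. With 3 libraries per group, such values cannot decide whether same-numbered libraries belong together. The cause of each change was not tested. List scores limit what can be said of weak sites, since depth is unknown.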
